A study of Mus musculus with 10 samples.

Results

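The interferon response and class I antigen presentation genes of the mouse brain were followed through a treatment with FTY720, a modulator of sphingosine-1-phosphate receptors that holds T-cells in lymphoid organs. They are 40 genes chosen by name out of the 54532 genes of the count table, and all 40 were found there. Brain RNA came from 10 mice homozygous for the knockout allele Slc20a2 tm1a(EUCOMM)Wtsi (Slc20a2-HO), a model of the brain calcification that follows loss of a phosphate transporter, and both groups carried this genotype. The FTY720 group (6 mice) received 0.5 mg/kg intraperitoneally in dimethyl sulfoxide and the placebo group (4 mice) received dimethyl sulfoxide alone, with injections starting at an age of 1.5 months and going on over 12 weeks, and the mice were perfused with saline before the brain was taken. No wild-type or untreated library was analysed here, so the levels below are those of brains of this genotype and not a departure from normal ones.

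Interferons are secreted when a cell senses foreign or misplaced nucleic acid. Type I interferons bind a receptor whose kinases phosphorylate STAT2, which joins IRF9 in a complex that binds the interferon-stimulated response element (ISRE) in front of antiviral genes, while interferon gamma acts on the gamma-activated site (GAS) and is the stronger inducer of the guanylate-binding and immunity-related GTPases, the immunoproteasome, the peptide transporter TAP and the MHC class I heavy chains. In the uninflamed brain these genes are read at a low tonic level, mostly in microglia and endothelium, and they rise in many neurodegenerative and inflammatory settings, also where T-cells enter the parenchyma. In RNA from brain tissue, fewer cells of a type and less RNA per cell cannot be told apart.

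Counts summed to between 14772745 and 18303981 per mouse. The mice carry a letter for the group, a digit (1 or 3) and a number, as in F1-622 or P3-904, and the sources used here leave this digit unexplained. It separated the libraries: the summed level of 7 cerebellar granule cell markers was 111 to 130 CPM (counts scaled to a common library size) where the digit was 1 (4 mice) and 1060 to 1159 CPM where it was 3 (6 mice). The digit 1 mice hold 3 FTY720 libraries and 1 placebo library (P1-623), the digit 3 mice 3 of each, so the counts of members, and the estimates of several named genes, are also given within the digit 3 or with the digit as a covariate. Slc20a2 itself lay between 6.31 and 14.77 CPM in the FTY720 group and between 9.43 and 17.0 CPM in the placebo group, which does not check the genotype since no wild-type library stood beside them.

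Many of the promoters of the members carry the letters of the interferon response element. Of the 40 members, 30 had 1 or more promoter windows in RefSeq (build GRCm38.p6; 250 bases before to 50 bases after a transcription start), and an ISRE-like match, GAAANNGAAA on either strand, was present for 16 of those 30 members. The same letters stood in 3.44% of all 32851 promoter windows of that length and in 48.6% of the 35 windows of the members. A GAS-like match, TTCNNNGAA, which reads the same on both strands, was present for 8 of the 30 members, in 22.9% of their windows against 8.3% of all windows. A match describes the letters only and is no evidence of binding in these brains. The stretches below are those of members that the results return to. They are written 5′ to 3′ on the strand of the gene, with the ISRE-like matches, and any GAS-like match within 25 bases of one, in capitals, and an ISRE-like match on the opposite strand reads TTTC. They come from Stat2 (chr10:128270251-128270310, plus strand), B2m (chr2:122147523-122147582, plus), Rsad2 (chr12:26456538-26456597, minus), Trim30a (chr7:104465195-104465254, minus), Bst2 (chr8:71537562-71537633, minus), Ifit3 (chr19:34583348-34583441, plus), Igtp (chr11:58199486-58199556, plus) and Irgm2 (chr11:58214877-58214947, plus).
Stat2: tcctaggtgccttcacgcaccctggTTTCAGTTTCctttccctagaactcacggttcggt
B2m: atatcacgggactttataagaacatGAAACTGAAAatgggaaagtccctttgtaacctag
Rsad2: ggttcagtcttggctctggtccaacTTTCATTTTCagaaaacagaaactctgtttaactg
Trim30a: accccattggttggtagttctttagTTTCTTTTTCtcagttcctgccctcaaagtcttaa
Bst2: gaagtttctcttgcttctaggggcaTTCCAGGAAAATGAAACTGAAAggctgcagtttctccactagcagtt
Ifit3: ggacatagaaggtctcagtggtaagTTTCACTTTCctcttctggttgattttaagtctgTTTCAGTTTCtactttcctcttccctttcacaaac
Igtp: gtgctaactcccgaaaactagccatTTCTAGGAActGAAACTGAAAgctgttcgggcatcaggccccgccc
Irgm2: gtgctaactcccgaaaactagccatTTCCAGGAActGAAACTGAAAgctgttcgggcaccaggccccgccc
The stretches of the neighbouring GTPase genes Igtp and Irgm2 are almost identical copies, each with a GAS-like match immediately before the ISRE-like one. Bst2 joins both motifs in the same order, and Ifit3 holds the ISRE-like letters at a pair of places. No ISRE-like match stood in the windows of Irf7, Irf9, Oasl2, Ifit2, Ifi35, Ifi44, Xaf1, Dtx3l, H2-D1, H2-K1, Tap1, Tapbp, Psmb8 or Psmb9, and Dhx58, Ifi27, Nlrc5, Oas2, Parp14, Parp9, Rtp4, Tap2, Usp18 and Zbp1 had no window.

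Most members were expressed at low levels, and the highest were both class I genes and antiviral effectors. On the scale that allows genes to be compared, FPKM (fragments scaled to gene length and library size), 21 of the 40 had a mean above 1 over the 10 mice and 4 a mean above 10. The 4 were B2m, the light chain shared by all class I molecules (mean 116 FPKM), the heavy chain H2-D1 (25.4), Ifi27, a small membrane protein of mitochondria and nuclear envelope (17.4), and the heavy chain H2-K1 (15.6). Tapasin (Tapbp, 9.82 FPKM), which loads peptide onto the heavy chains, and Stat2 (5.84) followed, while the class I genes Tap2 (1.88), Psmb8 (0.863), Tap1 (0.758) and Psmb9 (0.429) stood low. In counts, 26 members had a mean of 50 or more. The other 14 had means of 7 to 39.9 counts, with single values between 0 and 68, and are described apart as low-count members.

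FTY720 against placebo asks whether the treatment changed the interferon program of these brains. No member passed. Of the 39 members tested, 0 had an unadjusted p under 0.05 in edgeR's quasi-likelihood test, where 2.61% of all 17665 genes did. The smallest p was 0.0912, for Parp9, and its adjusted p of 0.99992 was also the smallest of the whole table. In no member did the FTY720 and placebo mice fail to overlap, against 0.804% of all genes. The median log2 fold change was -0.03 over the members (19 higher, 20 lower) and -0.003 over all genes tested. The 95% confidence interval of every tested member held 0, and for all 26 members with 50 counts or more it ended within 1 of 0 on the log2 scale. The intervals are not adjusted for the number of members.

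**Figure D1:**
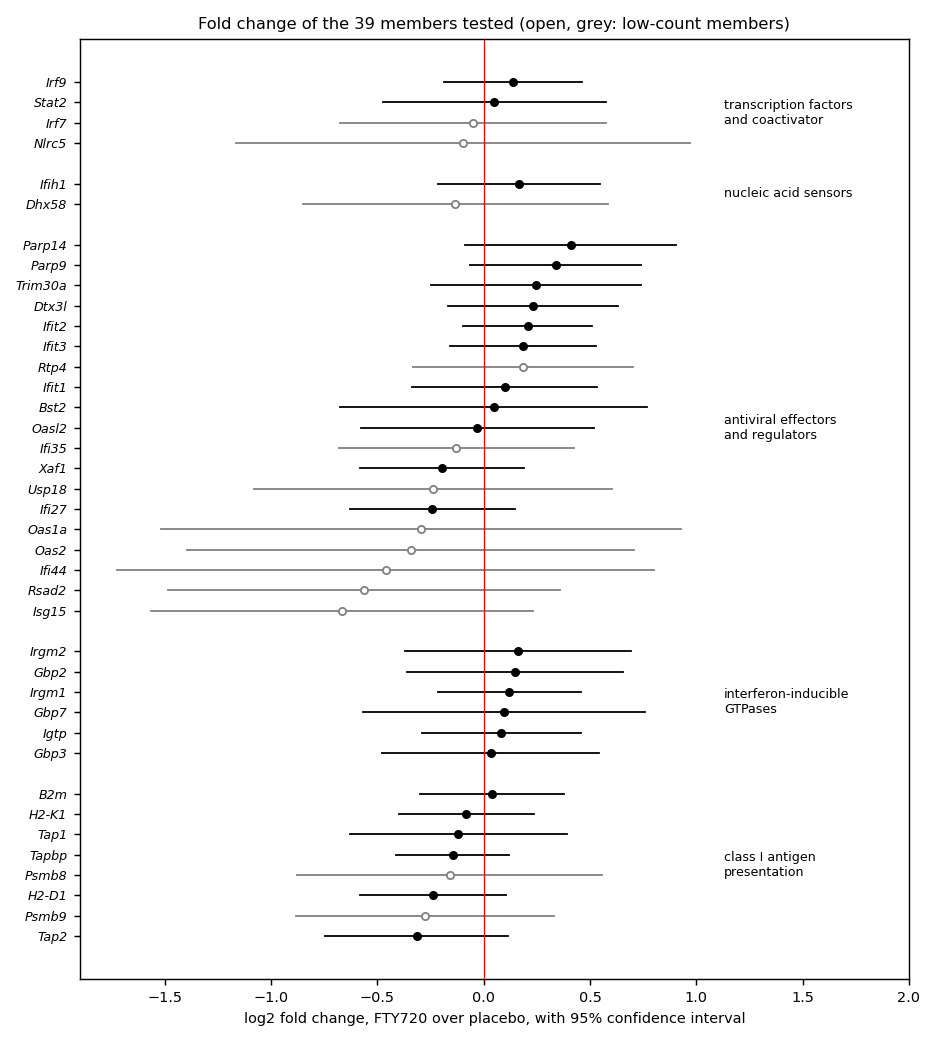
Log2 fold change of FTY720 over placebo for the 39 members tested, by role, with 95% confidence intervals from edgeR (10 mice); filled black points have a mean of 50 counts or more and open grey points are low-count members. All intervals cross the line at 0, the 6 GTPases lie to its right and 7 of the 8 class I genes to its left.

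The transcription factors that carry the interferon signal did not pass the test over the 10 mice, and Stat2 did once the digit was a covariate. Irf9 (chr14:55603571-55610030), the DNA-binding subunit of the complex with STAT2, had 11.48, 12.96 and 15.8 CPM as the lowest, median and highest value of the FTY720 mice, and the placebo mice had 11.05 (P3-612), 9.17 (P1-623), 13.05 (P3-904) and 14.2 CPM (P3-907). Stat2 (chr10:128270559-128292849) had 25.2, 34.0 and 48.0 CPM with FTY720, and 34.1, 20.6, 43.8 and 38.6 CPM in P3-612, P1-623, P3-904 and P3-907. For both genes the lowest mouse was P1-623 and the values of the groups interleaved. The log2 fold change was 0.14 ± 0.15 (SE) for Irf9 and 0.05 ± 0.24 for Stat2, with exact permutation p-values of 0.343 and 0.876 (two-sided, over the 210 assignments of 6 and 4 mice, the smallest possible p being 0.00952). With the digit as a covariate the estimates were 0.25 for Stat2, past an unadjusted p of 0.05 (adjusted p = 0.36535), and 0.22 for Irf9, and within the digit 3 they were 0.21 and 0.14, with neither past it. Reads of Irf9 may be shared with Rnf31, which overlaps it on the same strand and has a mean of 505 counts.

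Irf7, the factor that amplifies type I interferon production, and Nlrc5, the transactivator of MHC class I genes, were low-count. Irf7 had 0.954, 1.68 and 2.55 CPM with FTY720 (16 to 41 counts), and 1.48, 1.77, 1.96 and 2.17 CPM in P3-612, P1-623, P3-904 and P3-907 (25 to 40 counts). Nlrc5 had 0.839, 1.45 and 1.803 CPM with FTY720, and 0.713, 0.262, 2.37 and 2.38 CPM in the placebo mice in the same order, so its placebo mice spanned 4 to 44 counts. The placebo values of Nlrc5 enclosed all those of the FTY720 group. The exact permutation test gave p = 0.743 for Irf7 and 0.676 for Nlrc5, and the sign of the Nlrc5 estimate changed with the processing. Irf7 is overlapped on the opposite strand by Phrf1, with a mean of 789 counts, and may share reads with it. Of the cytosolic sensors of foreign nucleic acid, Ifih1 (MDA5, a sensor of double-stranded RNA) had a log2 fold change of 0.17 ± 0.18 and Dhx58 (LGP2) one of -0.13 ± 0.33. Zbp1, a sensor of Z-form nucleic acid, had 1 to 17 counts and was too low to test.

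Of the 19 antiviral effectors and regulators, 9 had a higher and 10 a lower estimate with FTY720, and the smallest p-values of all members were here. PARP9 and its partner, the ubiquitin ligase DTX3L, form a complex that enhances interferon signaling, and PARP14 is an ADP-ribosyltransferase of the same family, and the 3 genes lie close together on chromosome 16. Parp9 (chr16:35938470-35972605) had 3.19, 4.21 and 4.98 CPM with FTY720, and 3.03 (P3-612), 3.08 (P1-623), 3.81 (P3-904) and 3.14 CPM (P3-907) with placebo. Parp14 (chr16:35832874-35871544) had 3.33, 4.66 and 5.64 CPM with FTY720, and 3.27, 2.62, 4.73 and 3.31 CPM in the same placebo mice. For both genes all 6 FTY720 mice lay above P3-612, P1-623 and P3-907, and P3-904 lay among the FTY720 mice over all 10. Within the digit 3 the 3 FTY720 mice had 4.77, 4.48 and 3.94 CPM of Parp9, all above the 3.81 CPM of P3-904, while for Parp14 P3-904 stayed above F3-908 (3.83 CPM). The log2 fold change was 0.34 ± 0.19 for Parp9 (exact permutation p = 0.0571) and 0.41 ± 0.23 for Parp14 (exact permutation p = 0.105), and within the digit 3 both were 0.41. With the digit as a covariate Parp14 was 0.49, past an unadjusted p of 0.05 in edgeR (adjusted p = 0.38015), as were 12.8% of all genes. Parp9 was 0.38 in that fit and not past it. Dtx3l had 3.54, 4.99 and 5.90 CPM with FTY720 and 3.86, 3.54, 5.08 and 4.44 CPM with placebo, a log2 fold change of 0.23 ± 0.19 (exact permutation p = 0.2). Parp9 and Dtx3l overlap on opposite strands and the strand setting of the counting is not given in the sources used here, so their reads may not be separable.

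IFIT proteins bind viral RNA and block its translation. Ifit2 (chr19:34550694-34576419) had 10.4, 13.9 and 16.5 CPM with FTY720, and 12.95, 11.4, 12.01 and 11.9 CPM in P3-612, P1-623, P3-904 and P3-907. The placebo mice sat close together, and the FTY720 mouse below them was F1-918 of the digit 1. Within the digit 3 the FTY720 mice had 13.8, 14.1 and 13.1 CPM, all above the placebo mice there, with a log2 fold change of 0.16. Over the 10 mice its log2 fold change was 0.21 ± 0.14 (exact permutation p = 0.171), beside 0.18 ± 0.16 for Ifit3 and 0.10 ± 0.20 for Ifit1. Ifit3 has a close copy, Ifit3b, with which reads may be split. Ifi27 (chr12:103434211-103440239) went the other way, with 17.6, 22.4 and 30.8 CPM with FTY720 and 32.1, 33.3, 21.1 and 27.6 CPM with placebo. Its groups overlapped widely, and the log2 fold change was -0.24 ± 0.18 (exact permutation p = 0.267). Bst2 (tetherin, which holds budding virions at the cell surface) varied most among the better-counted members, from 1.97 CPM in F3-609 to 8.29 CPM in F1-622, both FTY720 mice, against 3.41 to 4.57 CPM with placebo.

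The 6 interferon-inducible GTPases, which attack the vacuoles of intracellular pathogens, all had a higher estimate with FTY720 and all missed the test. Their log2 fold changes ran from 0.03 (Gbp3) to 0.16 (Irgm2) with a median of 0.11, and the smallest p was 0.451. Irgm1, the best counted, had 7.32 to 10.9 CPM with FTY720 and 7.68 to 8.83 CPM with placebo. Irgm2 had 3.26 to 5.18 CPM with FTY720, and 4.10, 1.90, 4.68 and 4.44 CPM in P3-612, P1-623, P3-904 and P3-907. P1-623 was the lowest of all mice, and the other placebo mice lay among the FTY720 mice. Gbp7 was high in 1 mouse of each group, 7.04 CPM in F3-612 and 7.16 CPM in P3-904, where all the others had 4.77 CPM or less. The gene models of Igtp and Irgm2 overlap on the same strand, and the GBP genes are close copies of each other, so reads of these genes may be shared.

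Class I antigen presentation pointed the opposite way, with 7 of the 8 genes lower and B2m higher in the estimates, a median log2 fold change of -0.15 and 0 of 8 past the test. H2-D1 (chr17:35262730-35267499) had 47.3, 61.4 and 77.3 CPM with FTY720, and 92.7 (P3-612), 66.0 (P1-623), 55.1 (P3-904) and 78.0 CPM (P3-907) with placebo. The placebo mice P3-612 and P3-907 lay above all the FTY720 mice, and P3-904 lay below their median. H2-K1 (chr17:33996017-34000333) had 35.2, 37.9 and 52.2 CPM with FTY720, and 49.0, 43.9, 32.2 and 44.7 CPM in the same placebo mice. B2m (chr2:122147686-122153083) had 81.3, 96.97 and 142 CPM with FTY720 and 120, 92.0, 84.3 and 101 CPM with placebo. For H2-K1 and B2m the highest mouse was F1-622 of the FTY720 group, and the mice of the groups interleaved.

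In levels, H2-D1 was 61.8 ± 9.83 CPM with FTY720 (SD, n = 6) and 72.9 ± 16.1 CPM with placebo (SD, n = 4), and B2m was 102 ± 21.3 and 99.2 ± 15.2 CPM. The log2 fold changes were -0.24 ± 0.16 (SE; exact permutation p = 0.238) for H2-D1, -0.08 ± 0.15 (p = 0.61 by the same exact permutation test) for H2-K1 and 0.04 ± 0.16 (p = 0.886, likewise exact permutation) for B2m, and within the digit 3 they were -0.17, -0.19 and -0.04. The heavy chains are close copies of each other, so reads of these genes may be shared.

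The genes that make and carry the peptides were close to the heavy chains in direction. Tap2 (chr17:34203527-34216321), 1 chain of the TAP transporter that moves peptides into the endoplasmic reticulum, had 4.83, 6.36 and 8.93 CPM with FTY720, and 9.03, 9.70, 6.06 and 7.75 CPM in P3-612, P1-623, P3-904 and P3-907. Its log2 fold change was -0.32 ± 0.20 (exact permutation p = 0.143), the lowest among the members with 50 counts or more, and F1-918 was the FTY720 mouse that lay among the high placebo mice. Within the digit 3 it was -0.26. Tapbp (chr17:33915899-33929288) had 25.2, 32.4 and 34.4 CPM with FTY720, and 37.2, 39.8, 29.9 and 31.96 CPM with placebo. Its log2 fold change was -0.15 ± 0.12 (exact permutation p = 0.238), with the smallest standard error of all members. Tap1 had -0.12 ± 0.24, and the immunoproteasome subunits Psmb8 and Psmb9, both low-count, had -0.16 ± 0.33 and -0.28 ± 0.28. Psmb9 and Tap1 overlap head to head, and Tapbp overlaps Zbtb22.

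**Figure D2:**
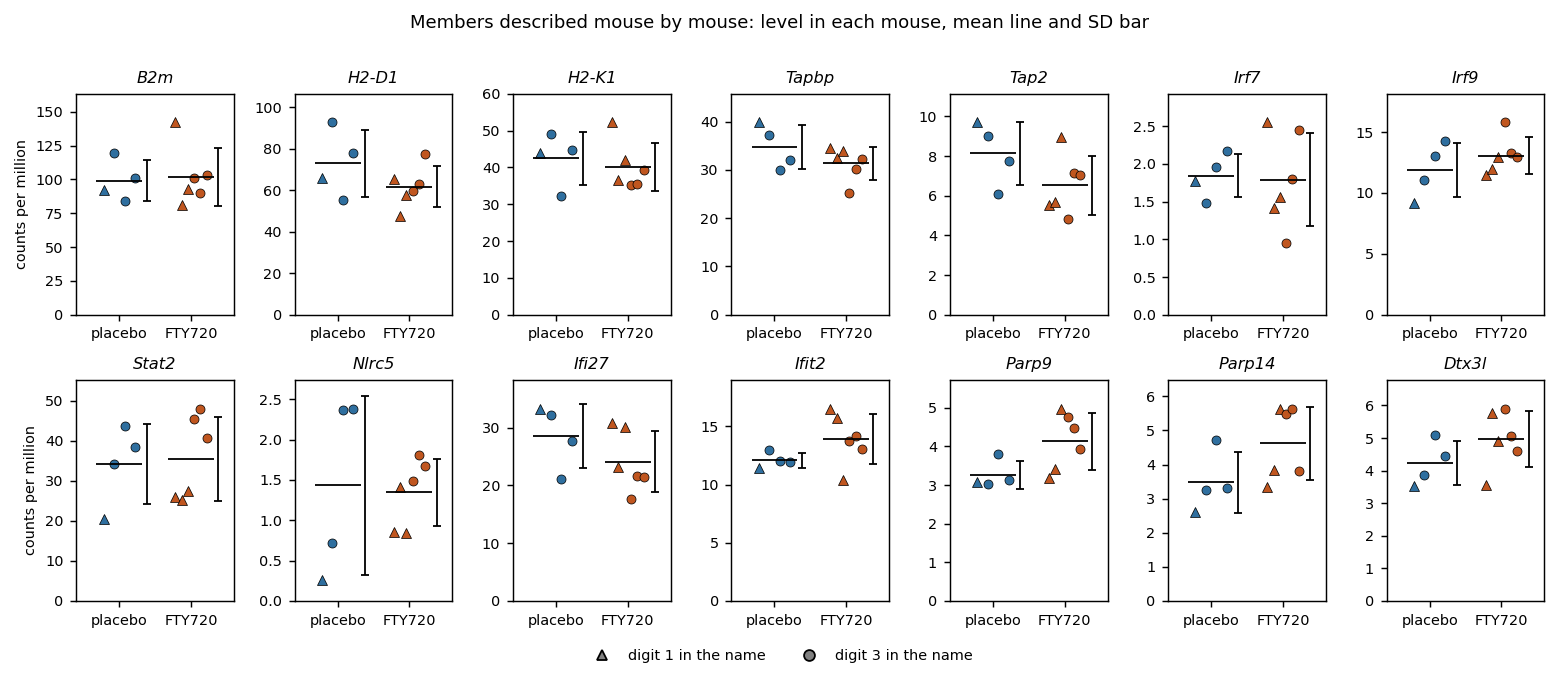
Level (CPM, linear axis from 0) of 14 members in each mouse by group; triangles are mice with the digit 1 and circles mice with the digit 3 in the name, the line is the group mean and the bar at its side the SD (n = 4 placebo, 6 FTY720). The groups overlap in every panel, and the digit 1 mice are the lower ones for Stat2 in both groups.

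The 14 low-count members were read from few fragments, and their estimates were mostly lower with FTY720. Of the 13 tested, 12 had a lower and 1 (Rtp4, 0.18) a higher estimate, with a median log2 fold change of -0.24. With the digit as a covariate 10 were lower and 3 higher and the median was -0.08, and within the digit 3 the split was the same and the median -0.23. The table as a whole leaned the same way at this depth: of the 4289 genes tested with a mean under 50 counts, 58% had a lower estimate and the median was -0.07, against 48.3% and 0.01 for the 13376 genes with more. Isg15, the ubiquitin-like modifier that interferon attaches to proteins, had 5, 16.5 and 35 counts as the lowest, median and highest value with FTY720 and 24, 27, 23 and 41 counts in P3-612, P1-623, P3-904 and P3-907. It had the lowest estimate of all members, -0.67 ± 0.41. F1-918 (35 counts) and F3-908 (23 counts) of the FTY720 group reached the placebo range. Rsad2 (viperin, which makes a chain-terminating nucleotide) had 6 to 34 counts with FTY720 and 13 to 45 with placebo, and an estimate of -0.56 ± 0.42, which shrank to -0.29 in the fit with the digit and to -0.28 within the digit 3. Usp18, which removes ISG15 and damps the receptor, had 11 to 30 and 8 to 35 counts, and the oligoadenylate synthases that activate RNase L had 3 to 25 and 7 to 20 counts (Oas1a) and 4 to 23 and 6 to 31 counts (Oas2). Ifi44 had 0 to 21 counts with FTY720 and 11 to 21 with placebo, Ifi35 22 to 41 and 29 to 44, Dhx58 14 to 50 and 22 to 43, and Rtp4, which lies across Masp1 on the opposite strand (mean 229 counts) and may share its reads, 26 to 47 and 26 to 45. The immunoproteasome genes had 24 to 48 and 20 to 68 counts (Psmb8) and 18 to 33 and 21 to 42 counts (Psmb9). The standard errors of these genes ran from 0.24 to 0.58 on the log2 scale, against 0.12 to 0.33 for the other members.

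Within the digit 3, where 3 FTY720 mice stand against 3 placebo mice, 2 of 39 members passed an unadjusted p of 0.05 in edgeR, beside 7.27% of all 17656 genes tested there. They were named after their values were seen. Trim30a, a ring-finger protein that restrains inflammatory signaling, had 4.71, 4.01 and 4.72 CPM in F3-609, F3-612 and F3-908, and 3.27, 3.29 and 2.92 CPM in P3-612, P3-904 and P3-907. The groups did not overlap there, and the log2 fold change was 0.51 with an adjusted p of 0.65439. The exact permutation test gave p = 0.1 for Trim30a, the smallest that 3 against 3 mice allow, and p = 0.3 for Ifi27. The digit 1 mice did not repeat it, with 3.26, 2.18 and 3.12 CPM in F1-622, F1-624 and F1-918 beside 2.88 CPM in P1-623. Ifi27 had 17.6, 21.6 and 21.5 CPM in the 3 FTY720 mice and 32.1, 21.1 and 27.6 CPM in the placebo mice, a log2 fold change of -0.41 (adjusted p = 0.65439). Here P3-904 overlapped with the FTY720 mice.

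Groups that did not overlap within the digit 3 were seen for 3 of 39 members (Trim30a, Parp9 and Ifit2, each higher with FTY720), where 12.9% of all genes tested there did not overlap. The count of 2 rested on single libraries. The count was 0 without F3-609 and 0 without P3-907, and 8 without P3-904, where Ifi27, H2-K1, H2-D1, Psmb8 and Psmb9 were lower and Stat2, Parp14 and Gbp7 higher with FTY720. Without P3-904, 21.7% of all 17952 genes tested passed too, so the members' share there was close to that of the table. Over all 10 mice with the digit as a covariate, 3 members passed the unadjusted threshold: Stat2 (log2 fold change 0.25) and Parp14 (0.49) higher, and Ifi27 (-0.36) lower. Of all genes, 12.8% passed in that fit. The smallest adjusted p of a member was 0.36392. All 8 class I genes had a lower estimate within the digit 3, with a median of -0.18, and all 6 GTPases a higher one, with a median of 0.09.

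More members differed between the digits than between the treatments, at a share below that of the whole table. Comparing digit 3 with digit 1 over the 10 mice, with treatment as a covariate, 5 of 39 members had an adjusted p under 0.05, beside 28.4% of all genes tested. Stat2, the clearest, had 40.6 to 48.0 CPM in the 3 FTY720 mice and 34.1 to 43.8 CPM in the 3 placebo mice with the digit 3, and 25.2 to 27.5 CPM in the 3 FTY720 mice and 20.6 CPM in the placebo mouse with the digit 1. The digits did not overlap in either group, and the log2 fold change was 0.82 ± 0.10 (adjusted p = 0.000217). Rsad2 was higher by 1.30 ± 0.30 (adjusted p = 0.00802), from 6 to 14 counts with the digit 1 to 24 to 45 counts with the digit 3. Oasl2, an OAS-like protein that raises RNA sensing, was higher by 0.72 ± 0.17 (adjusted p = 0.00877), from 35 to 49 counts with the digit 1 to 57 to 76 with the digit 3. Irgm2 was higher by 0.57 ± 0.20 (adjusted p = 0.0471) and Ifi27 lower by -0.41 ± 0.14 (adjusted p = 0.0404). Of the 39 members, 25 had a higher and 14 a lower estimate with the digit 3, with a median of 0.19, against -0.01 over all genes. Since the digit also separated the cerebellar granule cell genes, and 18 microglia and macrophage markers together had 534 to 721 CPM with the digit 1 and 369 to 542 with the digit 3 (12 of the 18 lower at an adjusted p under 0.05, 0 higher), the members' difference between digits cannot be told apart from the make-up of the tissue.

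**Figure D3:**
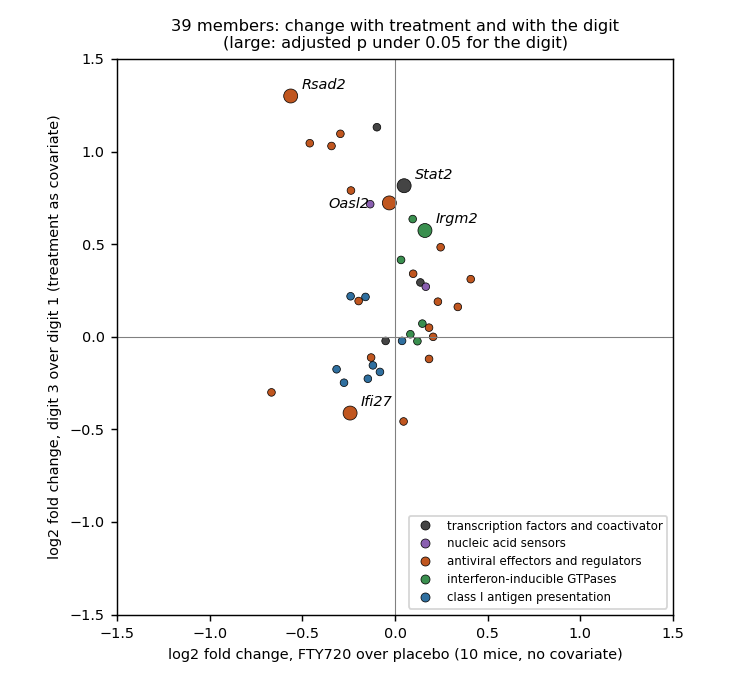
Log2 fold change of each of the 39 members tested with treatment (x axis, FTY720 over placebo, edgeR without covariate) and with the digit in the mouse's name (y axis, digit 3 over digit 1, treatment as covariate), coloured by role; large labelled points had an adjusted p under 0.05 for the digit. Points spread further up and down than sideways, with Rsad2 at 1.30 on the y axis and the treatment changes between -0.67 and 0.41.

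In no mouse were all members high or all low. Over the 26 members with 50 counts or more, the number of genes above their own median was 9 to 16 in the FTY720 mice and 8 to 15 in the placebo mice. The mean log2 deviation from each gene's mean was 0.02 ± 0.09 with FTY720 (SD, n = 6) and -0.03 ± 0.11 with placebo (SD, n = 4). With each gene centred within the digit, which fixes the group means to opposite signs and narrows the spread, it was 0.03 ± 0.06 with FTY720 and -0.05 ± 0.05 with placebo, and the mice of the groups still overlapped. The mouse that was lowest, P1-623, had a mean deviation of -0.19 and was the lowest of all mice in 8 of the 26 genes, but also the highest in 3, among them Tap2 and Tapbp. F1-622 was the highest mouse for 6 genes, namely B2m, H2-K1, Bst2, Ifit2, Ifit3 and Irgm1, and the lowest for Tap1. F3-609 was the highest for 5 (Irf9, Ifih1, Dtx3l, Gbp2 and Gbp3) and the lowest for 4 (Bst2, Ifi27, Tap2 and Tapbp).

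Within roles the mice ordered differently. The 6 class I genes with 50 counts or more were highest in P3-612 (mean deviation 0.30, all 6 above their medians) and P1-623 (0.17) and lowest in F3-609 (-0.24) and P3-904 (-0.18), whereas the 6 GTPases were lowest in P1-623 (-0.40, 0 of 6 above their medians) and highest in F3-609 (0.20) and F3-612 (0.19). By group, the class I genes averaged -0.06 ± 0.11 with FTY720 and 0.09 ± 0.20 with placebo, the GTPases 0.05 ± 0.16 and -0.07 ± 0.22, and the 11 antiviral effectors 0.04 ± 0.10 and -0.05 ± 0.08. Each of these differences was smaller than the spread between the mice of the wider group. With each gene centred within the digit, the antiviral effectors averaged 0.05 ± 0.08 with FTY720 and -0.07 ± 0.04 with placebo, the GTPases 0.07 ± 0.12 and -0.10 ± 0.12, and the class I genes -0.06 ± 0.10 and 0.10 ± 0.20, values that are not free of each other for the same reason. On that scale, where the spread is narrowed, the differences of the antiviral effectors and of the GTPases were larger than the spread of either group. The class I difference stayed smaller than the spread of the wider group. The mice of the groups overlapped in all 3 roles on that scale too.

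**Figure D4:**
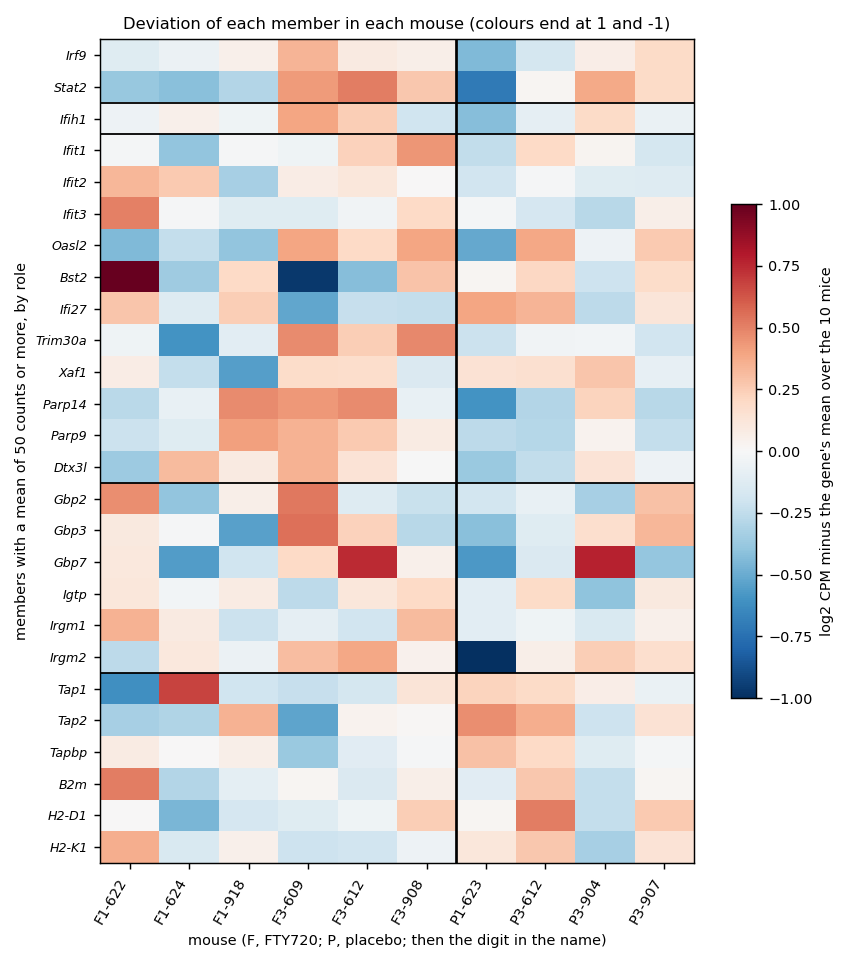
Log2 CPM of each of the 26 members with a mean of 50 counts or more (rows, by role) in each mouse (columns) as a difference from the gene's mean over the 10 mice, red higher and blue lower. No column is of 1 colour throughout; P1-623 is blue for both transcription factors and all GTPases and red for Tap1, Tap2 and Tapbp.

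**Figure D5:**
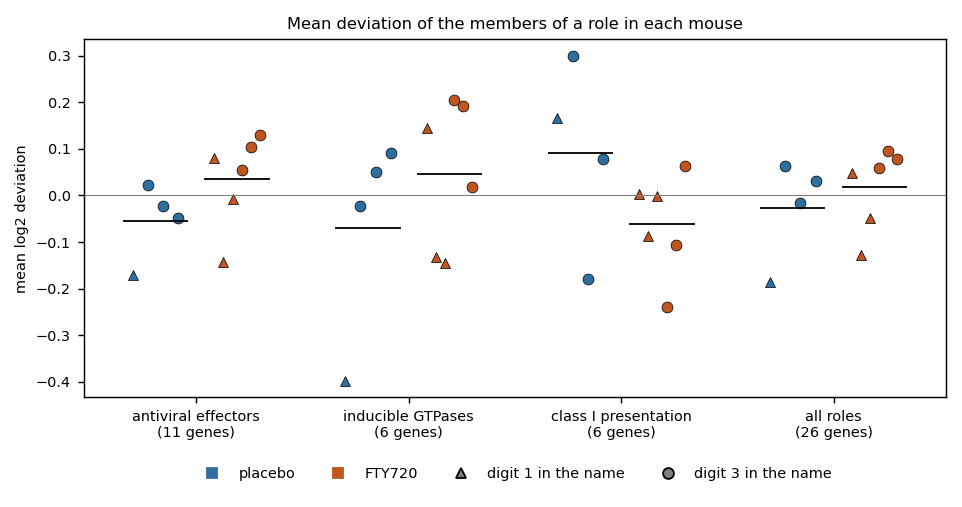
Mean log2 deviation of the members of a role in each mouse (y axis), for placebo (blue) and FTY720 (orange) mice, with the group mean as a line; triangles have the digit 1 and circles the digit 3. The groups overlap in all 4 columns, and P1-623 is the lowest mouse for the GTPases and the next to highest for class I presentation.

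The rest of the pathway was followed through 138 further genes of the same biology, of which 101 could be tested. The ligands were almost unread. Of the 21 interferon genes in the table, 10 had 0 counts in every mouse, no single value exceeded 5 counts, and the 21 together had between 0 and 8 counts per mouse, with 0 counts of Ifnb1 in every mouse and 1 count of Ifng in a single placebo mouse. Differences in the ligands were not detectable at this depth. Their receptors were well expressed, with means of 723 counts for Ifnar1, 206 for Ifnar2, 296 for Ifngr1 and 631 for Ifngr2, and 0 of 5 receptor genes passed, also within the digit 3.

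Among the 101 genes, 4 passed an unadjusted p of 0.05, with 2.61% of all genes as the background, and all 4 are interferon-induced genes. Trim21, a cytosolic antibody receptor and ubiquitin ligase, had 2.46, 2.87 and 3.37 CPM with FTY720 and 2.08, 1.97, 1.85 and 2.22 CPM with placebo. All the FTY720 mice lay above all the placebo mice, where 0.804% of all genes did not overlap. The log2 fold change was 0.50 ± 0.18. The exact permutation p of 0.00952, the smallest possible, follows from that separation alone. Herc6, the main ligase for ISG15 in the mouse, had 9.53 to 13.9 CPM with FTY720 and 7.91 to 10.7 with placebo (log2 fold change 0.34 ± 0.15, exact permutation p = 0.0476). Ifit1bl1, an IFIT1-like gene, had 2.09 to 4.61 CPM with FTY720 and 1.501 to 2.36 with placebo (0.69 ± 0.25, exact permutation p = 0.019). Gbp11, with 3 to 34 counts, was the gene that was lower, with 0.213 to 1.05 CPM with FTY720 and 1.01 to 1.84 CPM with placebo (-1.10 ± 0.41, exact permutation p = 0.019). The edgeR adjusted p of all 4 was 0.99992. The other lists gave 0 of 11 kinases and transcription factors, 0 of 17 genes of nucleic acid sensing and 0 of 28 further antigen presentation genes, with medians of -0.06, 0.03 and -0.11. With the digit as a covariate these lists gave 1 (Jak2, higher), 1 (Rnaseh2c, lower) and 3 (Psmb10, H2-K2 and H2-Ab1, lower), beside 12.8% of all genes. Within the digit 3 they gave 1 of 11, 1 of 17 and 5 of 27, beside 7.27% of all genes.

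Levels of cell type markers stood beside these values, and their counts past p 0.05 are to be read against 2.61% of all genes over the 10 mice and 7.27% within the digit 3. Of the 16 T-cell markers 9 had a mean under 5 counts per mouse, among them the defining Cd3d (0.6), Cd3g (1.1), Cd8a (2.3) and Cd3e (3.8), while Cd4 (85.8) and Trbc2 (86.1) had more. Of the 7 that could be tested, Trat1 alone passed an unadjusted p of 0.05, from 4 to 25 counts per mouse. It was higher with FTY720 and without overlap (1.14 to 1.49 against 0.217 to 0.635 CPM, edgeR adjusted p = 0.99992), where 0.804% of all genes did not overlap. The 16 T-cell markers summed to 13.2 to 23.96 CPM with FTY720 and 15.98 to 25.5 with placebo. This sum separated by digit, with 19.9 to 25.5 CPM for the digit 1 and 13.2 to 18.05 for the digit 3. Within the digit 3 it was 13.2, 15.6 and 18.05 CPM with FTY720 and 15.98, 16.3 and 16.1 CPM with placebo. Its largest parts were Cd4 (means 5.04 and 5.45 CPM with FTY720 and placebo) and Trbc2 (5.11 and 5.49 CPM). The 18 microglia and macrophage markers summed to 369 to 721 CPM with FTY720 and 435 to 613 with placebo, with 0 of 18 past p 0.05 over the 10 mice and 4 of 18 lower within the digit 3. The 15 endothelial markers summed to 328 to 447 CPM with FTY720 and 312 to 338 with placebo, with 4 of 15 higher and 0 lower at p 0.05, and 5 of 15 higher within the digit 3. The 9 oligodendrocyte markers summed to 5721 to 6630 CPM with FTY720 and 6501 to 7583 with placebo, with 9 of 9 estimates lower, 3 of 9 past p 0.05 over the 10 mice and 4 of 9 within the digit 3, 0 higher. With the digit as a covariate 9 of 15 endothelial markers were higher at p 0.05, and 2 of 18 microglia and macrophage and 4 of 9 oligodendrocyte markers lower. Of all genes, 12.8% passed in that fit. The part of these cell types in the members' values was not tested.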

How the data were processed

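The authors prepared libraries with the NEBNext Ultra RNA kit, aligned paired-end reads to GRCm38/mm10 with HISAT2 2.0.5 and deposited whole-number counts per gene, with featureCounts 1.5.0-p3, CASAVA 1.8, fastp and DESeq2 1.20.0 named in the submitters' processing notes. The strand setting and annotation release were not given in the sources used here. The authors also deposited FPKM values made from these counts. All columns matched a mouse by name, and 0 columns were left unmapped. Counts (14772745 to 18303981 per mouse) were filtered with filterByExpr, scaled by TMM and tested over the whole table with edgeR 4.0.16 (quasi-likelihood, R 4.3.3, no covariate), with Benjamini-Hochberg adjustment over all genes. CPM uses TMM-scaled library sizes, and log2 CPM a prior count of 2. Standard errors come from the F statistic. The mice are separate animals by their names. FPKM served for comparing genes and, in limma 3.58.1, as log2(FPKM + 0.1) and log2(FPKM + 1) for an alternative. Other alternatives were DESeq2 1.42.0, limma-voom, RLE and upper-quartile scaling, no filter, at least 10 counts in every mouse, the digits as covariates and each mouse left out.

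The members and lists were chosen with earlier results of these data known. Values by mouse were given for the 8 members with 50 counts or more with the smallest p, the 4 with the highest FPKM, Irf7, Irf9, Stat2, Nlrc5 and any member whose groups did not overlap. Of other pathway genes, those with p under 0.05, the interferons and their receptors were named, and 1 gene is not reported here. H2-L was not analysed here. Promoter sequences came from RefSeq.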

Additional observations from a re-analysis of the deposited data

Results flagged for a closer look

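In 56 groups of mice (the FTY720 and the placebo group of each member tested for it), 2 values stood far from the rest of their group by Dixon's test, and chance flags about 1 in 20 groups. Parp9 was 3.81 CPM in the placebo mouse P3-904, where the others had 3.03 to 3.14 CPM. B2m was 142 CPM in the FTY720 mouse F1-622, where the other FTY720 mice had 81.3 to 103.6 CPM.

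The treatment effect was also tested for a difference between the digits, with an interaction term in edgeR. It had an adjusted p under 0.05 for 0 of 39 members (smallest 0.99994), and passed 0.05 unadjusted for 2, Irgm2 (-0.89 on the log2 scale) and Nlrc5 (-2.10), where 1.95% of all 17665 genes did. With the digit 1 there is 1 placebo mouse, P1-623, on which this term rests.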

How the results depend on the processing

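The median of the members stayed between -0.04 and 0.09 over the alternatives that keep all mice or the digit 3 mice, and between -0.07 and 0.05 with 1 mouse left out. Members past an unadjusted p of 0.05 numbered 0 with DESeq2, limma-voom, other scalings, other filters and both FPKM scales, 3 with the digit as covariate (12.8% of all genes), 3 with both digits (11%) and 2 in the digit 3 mice alone (7.27%), and 0 to 3 with 1 mouse left out (1.56% to 5.51% of all genes): Parp9 (0.41) and Parp14 (0.49) without F1-622, Ifit2 (0.28), Isg15 (-0.98) and Tap2 (-0.42) without F1-918, Parp14 (0.59) and H2-D1 (-0.35) without P3-904. Within the digit 3 the count of 2 became 1 with DESeq2 (Ifi27) and 1 with limma-voom (Trim30a), and 0 to 8 with 1 mouse left out (2.13% to 21.7% of all genes). Members that differed between the digits numbered 5, 3 with the first digit of a mouse's number as covariate (24.2% of all genes) and 3 to 6 with 1 mouse left out (14.4% to 34.2%; 3 without F1-622, F1-918, F3-609, F3-612, P1-623 or P3-907), Stat2, Oasl2 and Rsad2 among them each time. The 4 further pathway genes became 9 with the digit as covariate, 7 with both digits, 10 in the digit 3 mice alone and 2 to 8 with 1 mouse left out (8 without P1-623, 2 without P3-907), where the shares of all genes are those given above for the same fits, with Trim21 past 0.05 under each of these alternatives and with each mouse left out.

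Estimates near 0 changed sign. B2m was -0.0443 in the digit 3 mice alone and -0.0737 to 0.1417 with 1 mouse left out. Irf7 was 0.0037 with that first digit as covariate and -0.1682 to 0.0775 with 1 mouse left out, and Stat2 was -0.13 to 0.19. Nlrc5 was 0.27 with limma-voom, 0.27 with the digit, 0.28 with the first digit of the number, 0.48 with both and 0.0707 on log2(FPKM + 0.1), and -0.43 to 0.26 with 1 mouse left out. The cause was not tested. No paired analysis was made because the labels name no pairs, and the groups share 1 number only, whose meaning the labels do not give.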

Other observations

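Of the 10 genes of class II antigen presentation in the table, which antigen-presenting cells use toward CD4+ T-cells, 8 could be tested within the digit 3. Of these, 3 passed an unadjusted p of 0.05, each lower with FTY720, where 7.27% of all genes passed. All 8 had a lower estimate, as did 8961 of all 17656 genes tested there. This group was put together after its values were seen. Cd74, the invariant chain, had 3.88, 6.75 and 5.14 CPM in F3-609, F3-612 and F3-908 and 11.53, 7.74 and 7.53 CPM in P3-612, P3-904 and P3-907 (log2 fold change -0.76). H2-Ab1 had 0.716, 1.45 and 1.14 CPM and 4.28, 1.85 and 3.03 CPM in the same mice (-1.46), and H2-Eb1 1.25, 2.56 and 1.43 CPM and 5.29, 2.31 and 2.92 CPM (-0.99). Cd74 and H2-Ab1 did not overlap between the groups there and H2-Eb1 did, where 12.9% of all genes did not overlap. The edgeR adjusted p of each was 0.65439. Counts were few for H2-Ab1 (12 to 44 with FTY720 and 29 to 72 with placebo over the 10 mice) and H2-Eb1 (21 to 53 and 29 to 89). The exact permutation p was 0.1, 0.1 and 0.2, and 0.1 is the smallest that 3 against 3 mice allow. Of the 18 microglia and macrophage markers, 17 had a lower estimate within the digit 3 and 4 passed, 0 higher, and their part in these values was not tested. Over all 10 mice the log2 fold changes were -0.28, -0.78 and -0.66 with exact permutation p-values of 0.305, 0.0952 and 0.143. With the digit as a covariate H2-Ab1 was -0.95, past an unadjusted p of 0.05 in edgeR (adjusted p = 0.36675), and Cd74 and H2-Eb1 were not past it. Of all genes, 12.8% passed in that fit. Without a covariate H2-Ab1 also passed with DESeq2 and limma-voom, where 3.11% and 2.69% of all genes did. The digit 1 mice did not repeat the difference. F1-622, F1-624 and F1-918 had 8.44, 6.13 and 11.1 CPM of Cd74 beside 6.68 in P1-623, and 2.48, 1.24 and 2.64 CPM of H2-Ab1 beside 1.90. The placebo mouse P3-612 was the highest for all 3 genes, as it was for H2-D1. It was also the highest for 5 blood markers, which summed to 40.2 CPM there. They summed to 3.64 to 17.7 CPM with FTY720 and to 5.63, 3.46 and 2.98 CPM in P1-623, P3-904 and P3-907. The part of blood in these values was not tested. Within the digit 3, 10 of 101 further pathway genes passed an unadjusted p of 0.05, 4 higher (Parp12, Herc6, Trim21 and Erap1) and 6 lower (with Socs1, Rnaseh2c and Calr beside the 3 above), where 7.27% of all genes did. Socs1, a feedback inhibitor of interferon signaling, had 6 to 30 counts per mouse and a log2 fold change of -1.40 there (exact permutation p = 0.1).

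Cmpk2, a mitochondrial nucleotide kinase that interferon induces and whose loss causes familial brain calcification in people, lies beside Rsad2 in the genome. It had a mean of 485 counts, where Rsad2 had 24, and a log2 fold change of 0.08 ± 0.12 with FTY720 (exact permutation p = 0.495).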
